A study of Mus musculus with 12 samples.

Results

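The chromatin around 8 genes of the Hippo pathway's nuclear arm was compared between 2 mouse cell types, embryonic fibroblasts (MEF) and pluripotent embryonic stem cells (mESC): the TEAD transcription factor genes Tead1, Tead2, Tead3 and Tead4, the coactivator genes Yap1 and Wwtr1 (which encodes TAZ), and the target genes Amotl2 and Ankrd1. Peaks of open chromatin were taken as members if they overlapped the GENCODE M21 body of 1 of these genes (GRCm38) extended by 20 kb on each side. This gave 138 of 91354 peaks on the peak set built from BGI data and 125 of 87027 on the one built from Illumina data, and all of them passed the filter on low counts.

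The data come from Omni-ATAC-seq, in which the Tn5 transposase inserts sequencing adapters into accessible DNA. All cells had a C57/Bl6 background; MEFs were sorted as Thy1+ and mESCs as Thy1-/Ssea1+/Epcam+, and the age of the embryos, the stem cell line and the culture conditions are not given in the sources used here. Each cell type had 3 libraries (MEF libraries 1, 2 and 4, mESC libraries 1, 3 and 5), and all 6 were read on a BGI DNBSEQ-G400 and an Illumina HiSeqX10 instrument, which gave 12 samples in 4 groups of 3. Per the study's methods the 3 libraries of a cell type are biological replicates, so p-values measure the spread between them; what set the replicates apart (culture, embryo or clone) is not given in the sources used here. The study asked whether the sequencer changes what ATAC-seq recovers, and the cell types served as 2 well-separated states; values from both sequencers describe the same libraries and are not independent of each other.

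TEAD proteins bind DNA at a short element with the core GGAATG but activate transcription poorly alone. When the Hippo kinases are inactive, YAP and TAZ enter the nucleus and join TEADs at promoters and enhancers, often beside AP-1 factors. When the kinases are active, YAP and TAZ are phosphorylated and kept in the cytoplasm. Spread, contractile cells such as fibroblasts are known for strong YAP/TAZ activity, TEAD4 is known for its role in the trophectoderm, and TEAD2 is known as a TEAD of early embryos and neural precursors.

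Values below are CPM (the count in a peak scaled to a common total of reads in peaks, so that 1 CPM is 15.9 to 21.7 reads), as a mean ± SD over the 3 libraries of a group, and log2 fold changes are mESC over MEF from edgeR with their standard error (SE). The samples held 20.1 to 21.7 M reads in peaks in MEFs and 15.9 to 17.0 M in mESCs. The labels matched their markers on the BGI peak set: the promoter peak was higher in mESCs for 8 of 8 stem cell markers and lower for 7 of 8 fibroblast markers, Pdgfra being the exception (24.7 CPM in MEFs and 27.3 in mESCs). Of markers of other cells, 0 of 3 epithelial genes and 1 of 4 endothelial and blood genes had a promoter peak. The 4 trophectoderm genes with a promoter peak summed to 77.8 to 82.1 CPM in MEFs and 96.3 to 111 in mESCs, with Eomes and Tfap2c called higher and no promoter peak at Cdx2, and the 4 primitive endoderm genes summed to 53.0 to 60.6 and 59.8 to 65.9. These 4 moved in both directions: Sox17 rose from 3.14 to 18.6 CPM (log2 fold change 2.50), Gata4 rose from 9.28 to 14.4 (0.57), 1 was called lower and 1 was not called. What part those cells have in the values below was not tested.

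On the BGI peak set 114 of the 138 peaks differed between the cell types at an adjusted p under 0.05, with 59 higher and 55 lower in mESCs. Over all peaks 84.1% were called, 40.9% higher and 43.2% lower, so the total count at these genes was near the background. On the Illumina peak set 103 of 125 peaks were called, 54 higher and 49 lower, beside 84.5%, 42.1% and 42.4% of all peaks. The groups did not overlap in CPM at 114 of 138 BGI peaks and at 107 of 125 Illumina peaks, beside 85.1% and 85.6% of all peaks. Of the 117 BGI peaks with an Illumina partner sharing at least 50% of the width, 49 were called higher on both platforms, 46 lower on both and 0 in opposite directions.

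The directions were unequal across the genes. Peaks called higher outnumbered those called lower at Tead4 (15 against 3 of 21 peaks), Tead2 (8 against 3 of 14) and Yap1 (6 against 2 of 11) on the BGI peak set. The reverse held at Ankrd1 (0 against 4 of 4), Amotl2 (4 against 10 of 18), Wwtr1 (3 against 8 of 14) and Tead3 (5 against 10 of 17), and Tead1 was mixed (18 against 15 of 39). On the Illumina peak set the same genes leaned the same way, from 16 against 1 at Tead4 to 0 against 4 at Ankrd1. By role, the median log2 fold change on BGI was 0.55 over the 91 TEAD gene peaks, -0.07 over the 25 coactivator gene peaks and -0.71 over the 22 target gene peaks, beside -0.08 over all peaks. On Illumina these medians were 0.39, 0.23 and -0.82, beside -0.03 over all peaks, so that the sign of the coactivator median differed between the peak sets.

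**Figure D1:**
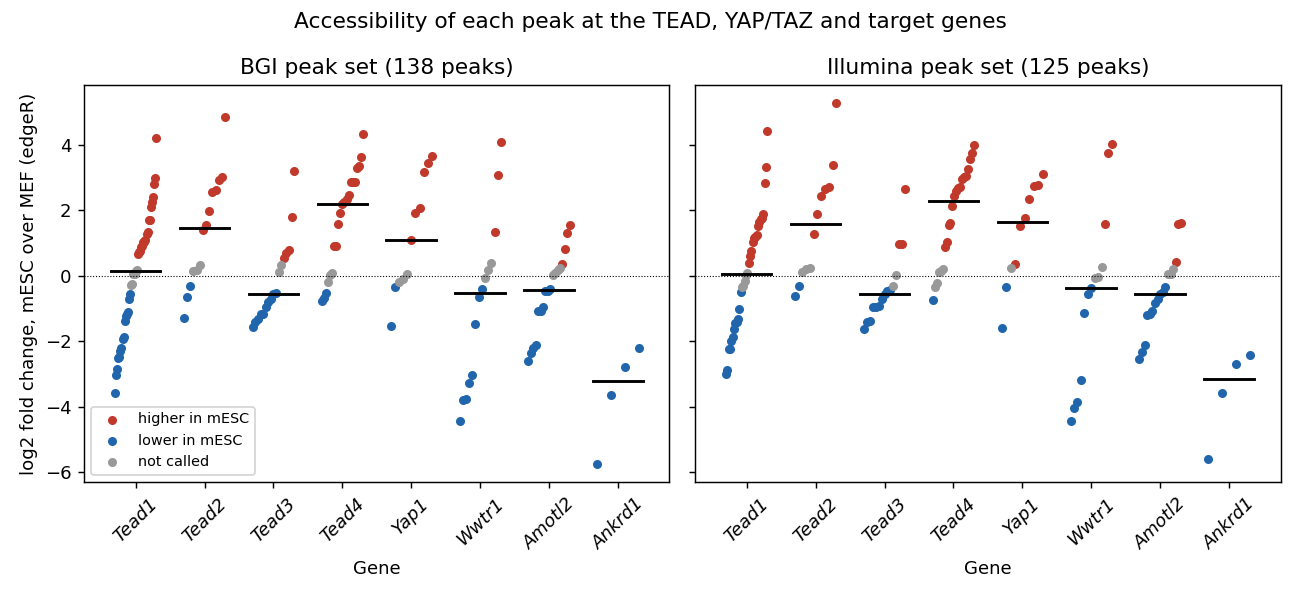
The vertical axis is the edgeR log2 fold change (mESC over MEF) of each of the 138 BGI peaks (left) and 125 Illumina peaks (right) by gene; red points were called higher in mESCs, blue points lower, grey points were not called, and the black bar is the gene's median. Most Tead4 points lie above 0, all 4 Ankrd1 points lie below it, and Tead1 and Wwtr1 spread far to both sides.

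Own promoters and distal sites were also counted apart. Of 34 BGI peaks within 1 kb of a transcription start site (TSS) of their own gene, 7 were higher in mESCs and 18 lower. Of 91 distal peaks (away from every TSS), 47 were higher and 33 lower. Among all peaks, 31.3% of promoter peaks were higher and 41.0% lower, and 45.5% of distal peaks were higher and 44.3% lower. A single gene carried much of each count: without Amotl2, 6 of 22 own-promoter peaks were higher and 10 lower, and without Tead4, 33 of 73 distal peaks were higher and 31 lower. Another 13 peaks lay at promoters of neighbouring genes, such as Dkkl1 and Cd37 beside Tead2 and Rpl10a and Fance beside Tead3, and belong to the set by position only.

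The strongest promoter peak of each gene, compared per length because all peaks share 1 width, gave the same leading pair in both cell types. On BGI, Wwtr1 was the most open promoter in MEFs (111 ± 2.38 CPM per kb), and its range stood clear of the next, Amotl2 (82.8 ± 2.79). Below it, Amotl2 and Tead3, Tead3 and Tead4, Ankrd1 and Yap1, Yap1 and Tead1, and Tead1 and Tead2 overlapped in range as neighbours in the order. In mESCs Wwtr1 (111 ± 7.31 CPM per kb) and Amotl2 (65.8 ± 5.08) again led. Tead1, Tead4, Yap1 and Tead3 followed, each overlapping its neighbour in range, with Tead2 (29.6 ± 2.39) and Ankrd1 (4.10 ± 2.50) below them. Below the leading pair the order changed with the platform: on Illumina in MEFs Ankrd1 (39.6 ± 10.7 CPM per kb) stood seventh, below Tead1 and Yap1 and apart from Yap1, and Tead4 stood above Tead3 with overlapping ranges. GC content differed among these promoters, from 52.2% at Ankrd1 to 79.3% at Tead1, and its part in the order was not tested.

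Tead1 is the longest of the genes (chr7:112679318-112906807, plus strand) and had the most peaks. Its main promoter peak (chr7:112679141-112679642) was open in every library, with 20.1, 16.4 and 23.6 CPM in MEFs and 23.3, 22.8 and 19.6 in mESCs. The groups overlapped and the difference was not called (log2 fold change 0.06, SE 0.13, adjusted p = 0.661). Inside the gene, however, 18 peaks were higher and 12 lower in mESCs, so that sites more open in either cell type lay along the same gene.

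The largest rise at Tead1 was at an internal start, 12.3 kb downstream of the gene's first base (chr7:112691404-112691905), where 1 of the 15 annotated transcripts begins (at 112691698). This peak measured 1.52, 1.39 and 1.79 CPM in MEFs and 28.7, 32.7 and 29.7 in mESCs, and MACS2 had called no summit there in any MEF library. The groups were far apart: a 19.4-fold difference, with a log2 fold change of 4.20 (SE 0.16, adjusted p = 4.83e-13). The nearest Illumina peak (chr7:112691081-112691582) overlapped it by less than 50% of the width and was named after its values were seen; it held 1.49 ± 0.795 CPM in MEFs and 33.0 ± 0.717 in mESCs. In the first exon of that transcript, 88 bases after its start, the reference holds an octamer, the sequence bound by POU factors such as OCT4. This octamer lies 135 bases from the centre of the BGI peak and outside the Illumina peak, and its binding was not tested. It is shown in capitals (chr7:112691775-112691804, plus strand).
Tead1 internal start: aaggctgctttATGCAAATgacacctgcta

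The most open distal site of Tead1 was open in both cell types, with summits called in all 3 libraries of each, and stronger in MEFs. This intronic peak, 40.9 kb into the gene (chr7:112720014-112720515), measured 50.5, 57.0 and 43.2 CPM in MEFs and 14.1, 7.98 and 12.5 in mESCs, 4.35-fold higher in MEFs (log2 fold change -2.19, SE 0.16, adjusted p = 6.90e-10). Illumina gave -2.24 (SE 0.16). Every MEF library lay above every mESC library. Its central 300 bases are shown because they hold an AP-1 element (TGANTCA) and a TEAD core (GGAATG), in that order and 13 bases apart, near the centre of the peak (chr7:112720115-112720414, plus strand, both in capitals).
Tead1 intron, higher in MEFs: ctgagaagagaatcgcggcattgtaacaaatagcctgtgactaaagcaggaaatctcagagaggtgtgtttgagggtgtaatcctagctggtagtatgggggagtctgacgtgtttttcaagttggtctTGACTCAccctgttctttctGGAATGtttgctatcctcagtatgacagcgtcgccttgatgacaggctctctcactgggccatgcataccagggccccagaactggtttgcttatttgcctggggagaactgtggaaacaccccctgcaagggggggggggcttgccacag

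A far weaker Tead1 intronic site (chr7:112864082-112864583, 185 kb into the gene) had the largest fall, from 5.66 ± 1.49 CPM in MEFs to 0.497 ± 0.410 in mESCs (log2 fold change -3.58, SE 0.44, adjusted p = 5.63e-07). It too holds 1 TEAD core and 1 AP-1 element. The site with the highest mESC level in the gene on both peak sets, an exonic peak at chr7:112841808-112842309 named after its values were seen, rose from 5.19 ± 0.700 to 43.4 ± 2.10 CPM.

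Tead2 (chr7:45215753-45233644, plus strand) had start-proximal peaks lower in mESCs and an mESC site inside the gene. The strongest promoter peak (chr7:45215592-45216093) measured 18.3, 16.3 and 18.4 CPM in MEFs and 15.4, 13.5 and 15.7 in mESCs. It was called lower in mESCs (log2 fold change -0.32, SE 0.12, adjusted p = 0.0261). The call was lost without MEF library 1 (adjusted p = 0.145), without mESC library 3 (0.141), and when the fit scaled each library by its depth after down-sampling in place of TMM (0.225), called fixed depths below. On Illumina (log2 fold change -0.32, adjusted p = 0.0245) it was lost without MEF library 1 (0.111) or mESC library 5 (0.0774) and at the fixed depths (0.173). A weaker promoter peak, named after its values were seen (chr7:45216362-45216863), fell without overlap from 15.4 ± 0.646 to 10.2 ± 0.723 CPM (log2 fold change -0.66, SE 0.14, adjusted p = 0.000268; Illumina -0.63). The third promoter peak of Tead2, at a start near the end of the gene (chr7:45231015-45231516), rose from 1.35 ± 0.313 to 10.7 ± 0.424 CPM.

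The strongest distal peak of Tead2, an intronic site 14.0 kb into the gene (chr7:45229484-45229985), was also its largest rise. It measured 0.785, 1.64 and 2.04 CPM in MEFs and 39.7, 49.4 and 45.8 in mESCs. That is a 30.2-fold difference (log2 fold change 4.86, SE 0.20, adjusted p = 9.05e-13), and Illumina gave 5.27 (SE 0.20). The whole peak holds none of the 3 motifs searched. The largest rises of Tead3, Tead4 and Yap1 also hold none, whereas those of Wwtr1 and Amotl2 hold a TEAD core. The largest falls of Tead3, Yap1 and Amotl2 hold none, and those of the other genes hold a TEAD core or an AP-1 element. The central 300 bases of the Tead2 site are shown as 1 example (chr7:45229585-45229884, plus strand).
Tead2 intron, higher in mESCs: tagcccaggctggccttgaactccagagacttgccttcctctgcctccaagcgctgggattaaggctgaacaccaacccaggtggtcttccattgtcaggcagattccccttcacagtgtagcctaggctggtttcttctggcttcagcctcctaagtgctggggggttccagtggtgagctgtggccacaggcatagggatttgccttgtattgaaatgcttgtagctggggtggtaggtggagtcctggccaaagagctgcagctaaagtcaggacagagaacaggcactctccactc

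Of the 8 Tead2 peaks called higher, 4 lay at promoters of other genes (Dkkl1, Cd37 and Slc6a16), so that 4 remained at the Tead2 promoters and distal sites. The largest fall was a weak intronic site of the neighbour Ccdc155, 18.6 kb upstream of Tead2, at 5.92 ± 1.09 CPM in MEFs and 2.52 ± 1.21 in mESCs (log2 fold change -1.30, SE 0.31, adjusted p = 0.000974), with no Illumina partner.

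Tead3 (chr17:28331671-28350817, minus strand) was the only TEAD gene whose strongest promoter and distal peaks were both called lower in mESCs. The promoter peak (chr17:28350710-28351211) measured 37.2, 33.4 and 40.9 CPM in MEFs and 17.97, 17.0 and 16.6 in mESCs, without overlap (log2 fold change -1.18, SE 0.11, adjusted p = 1.10e-08). Its strongest distal peak, exonic at chr17:28340959-28341460, fell from 29.7 ± 2.01 to 11.7 ± 0.143 CPM (log2 fold change -1.41, SE 0.12). The largest fall, an intronic site at chr17:28344916-28345417, was of like size (log2 fold change -1.56, SE 0.16, adjusted p = 5.78e-08). The largest of the 5 rises in its window (chr17:28323758-28324259, 0.782 ± 0.248 against 7.55 ± 0.452 CPM) lay beyond the end of Tead3, in an intron of another gene.

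Tead4 (chr6:128224288-128300823, minus strand) had a strongest promoter peak lower in mESCs and mostly higher distal sites. That promoter peak (chr6:128300210-128300711) measured 32.7, 33.5 and 32.5 CPM in MEFs and 22.3, 23.8 and 18.5 in mESCs, higher in every MEF library (log2 fold change -0.68, SE 0.11, adjusted p = 2.05e-05). Of its 18 distal peaks, 14 were called higher in mESCs and 2 lower. The largest rise was at an intronic site 39.1 kb into the gene (chr6:128261462-128261963), from 0.323, 0.447 and 0.249 CPM in MEFs, which is 5 to 9 reads, to 8.26, 7.81 and 5.59 in mESCs (log2 fold change 4.32, SE 0.35, adjusted p = 2.74e-09). The most open mESC sites of the gene on BGI, named after their values were seen, were a pair of intronic peaks at chr6:128280668-128281169 and chr6:128282080-128282581 that rose from 3.0 ± 0.468 to 30.4 ± 2.24 CPM and from 2.4 ± 1.01 to 31.1 ± 4.90 CPM.

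The strongest Tead4 distal peak by the mean of all 6 libraries was open in both cell types (chr6:128285691-128286192, intronic). It measured 21.7, 21.9 and 25.5 CPM in MEFs and 24.7, 22.6 and 26.5 in mESCs, overlapping, and was not called (log2 fold change 0.03, SE 0.11, adjusted p = 0.809). On Illumina the groups did not overlap (17.6, 20.7 and 21.4 CPM in MEFs and 22.9, 23.2 and 24.4 in mESCs), and the difference (0.20, SE 0.11, adjusted p = 0.0911) was called higher only at the fixed depths (0.0111) or a mean count filter of 50 (0.0493). It is shown because it too has a TEAD core and an AP-1 element at its centre, here 3 bases apart, in a site open in both cell types (chr6:128285792-128286091, minus strand; CATTCC is GGAATG on the other strand).
Tead4 intron, open in both: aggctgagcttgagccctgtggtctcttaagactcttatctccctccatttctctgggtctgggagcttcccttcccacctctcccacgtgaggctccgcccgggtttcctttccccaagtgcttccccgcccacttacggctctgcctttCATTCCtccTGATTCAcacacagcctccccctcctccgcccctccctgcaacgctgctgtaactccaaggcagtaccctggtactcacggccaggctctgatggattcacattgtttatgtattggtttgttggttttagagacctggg

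The largest Tead4 fall differed between the platforms in its call. This intronic peak (chr6:128279554-128280055) fell from 9.52 ± 0.915 to 5.80 ± 0.566 CPM on BGI (log2 fold change -0.78, SE 0.18, adjusted p = 0.000625). Its Illumina partner was not called (-0.34, SE 0.19, adjusted p = 0.108), except without mESC library 1 (0.0499).

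**Figure D2:**
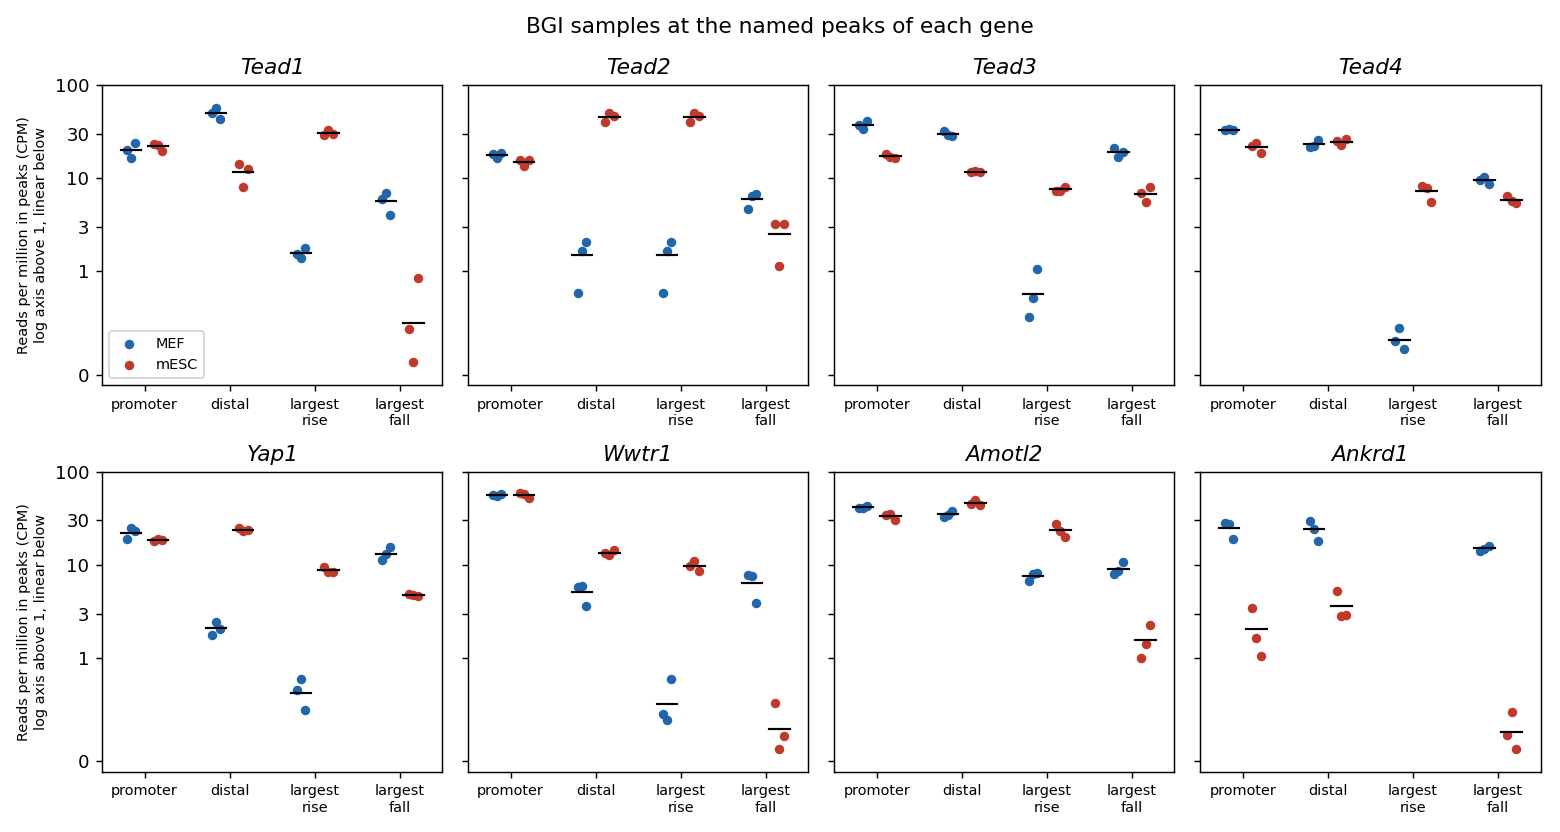
Each point is 1 BGI library (blue MEF, red mESC), the black bar is the mean of 3, and the vertical axis is CPM (log above 1, linear below) at each gene's strongest promoter peak, strongest distal peak, largest rise and largest fall. The promoter groups lie close together at every gene but Tead3, Tead4 and Ankrd1, while the largest rises and falls run from 1.64-fold (the Tead4 fall) to 53.0-fold (the Ankrd1 fall).

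The coactivator genes kept open promoters in both cell types. At Yap1 (chr9:7931999-8004596, minus strand) the promoter peak (chr9:8004526-8005027) measured 19.0, 24.7 and 22.9 CPM in MEFs and 17.9, 18.7 and 18.5 in mESCs, slightly lower in mESCs (log2 fold change -0.33, SE 0.12, adjusted p = 0.0158). This call was lost without MEF library 2 (adjusted p = 0.1) and at the fixed depths (0.167), and on Illumina (-0.33, SE 0.10, adjusted p = 0.00554) at the fixed depths (0.0877). A second Yap1 promoter peak, named after its values were seen, went the other way on Illumina (chr9:8003534-8004035, 19.2 ± 0.754 against 25.2 ± 1.83 CPM, log2 fold change 0.35, SE 0.10, adjusted p = 0.00477). The second Yap1 promoter peak of the BGI set (chr9:8003262-8003763) was not called (-0.10, adjusted p = 0.428). At Wwtr1 (chr3:57455649-57575910, minus strand) the promoter peak (chr3:57575691-57576192) measured 56.0, 54.6 and 57.0 CPM in MEFs and 58.4, 57.5 and 51.7 in mESCs, and was not called (log2 fold change -0.07, SE 0.09, adjusted p = 0.481); its small difference turned positive at the fixed depths (0.075).

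Both genes held distal sites of 1 cell type, with opposite balance. In Yap1, 6 of 9 distal peaks were higher in mESCs and 1 was lower. The strongest, 20.7 kb into the gene in an intron (chr9:7983624-7984125), measured 1.75, 2.44 and 2.04 CPM in MEFs and 24.9, 22.9 and 23.8 in mESCs, an 11.5-fold difference (log2 fold change 3.45, SE 0.17, adjusted p = 5.56e-12). A weaker exonic peak, 4.81 kb into the gene (chr9:7999538-8000039), had the largest rise, from 0.662 ± 0.151 to 8.79 ± 0.692 CPM (log2 fold change 3.65, SE 0.28). Its 1 called distal fall, intronic at chr9:7960323-7960824, went from 13.2 ± 2.10 to 4.75 ± 0.0990 CPM (log2 fold change -1.54, SE 0.17).

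In Wwtr1, 7 of 11 distal peaks were lower in mESCs and 3 were higher. The largest fall, in an intron 70.9 kb into the gene (chr3:57504714-57505215), measured 7.85, 7.55 and 3.93 CPM in MEFs and 0.567, 0.118 and 0.248 in mESCs, which is 9, 2 and 4 reads. No MEF library overlapped the mESC libraries (log2 fold change -4.43, SE 0.45, adjusted p = 4.79e-08; Illumina -3.87, SE 0.36). An AP-1 element lies within 1 base of the centre of this peak (chr3:57504815-57505114, minus strand, in capitals).
Wwtr1 intron, higher in MEFs: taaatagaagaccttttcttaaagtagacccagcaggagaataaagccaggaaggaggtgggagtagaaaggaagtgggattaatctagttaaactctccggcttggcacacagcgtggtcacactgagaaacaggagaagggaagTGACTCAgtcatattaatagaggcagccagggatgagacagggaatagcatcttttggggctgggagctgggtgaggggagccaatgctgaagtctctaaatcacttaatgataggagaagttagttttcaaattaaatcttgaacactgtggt
The largest Wwtr1 rise was 16.9 kb into the gene (chr3:57558758-57559259), where no summit was called in MEFs. It measured 0.462, 0.398 and 0.797 CPM in MEFs and 9.77, 11 and 8.63 in mESCs (log2 fold change 4.07, SE 0.29, adjusted p = 5.76e-10). The strongest distal peak, 20.2 kb into the gene (chr3:57555505-57556006), rose from 5.09 ± 1.27 to 13.5 ± 0.729 CPM (log2 fold change 1.34, SE 0.19).

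**Figure D3:**
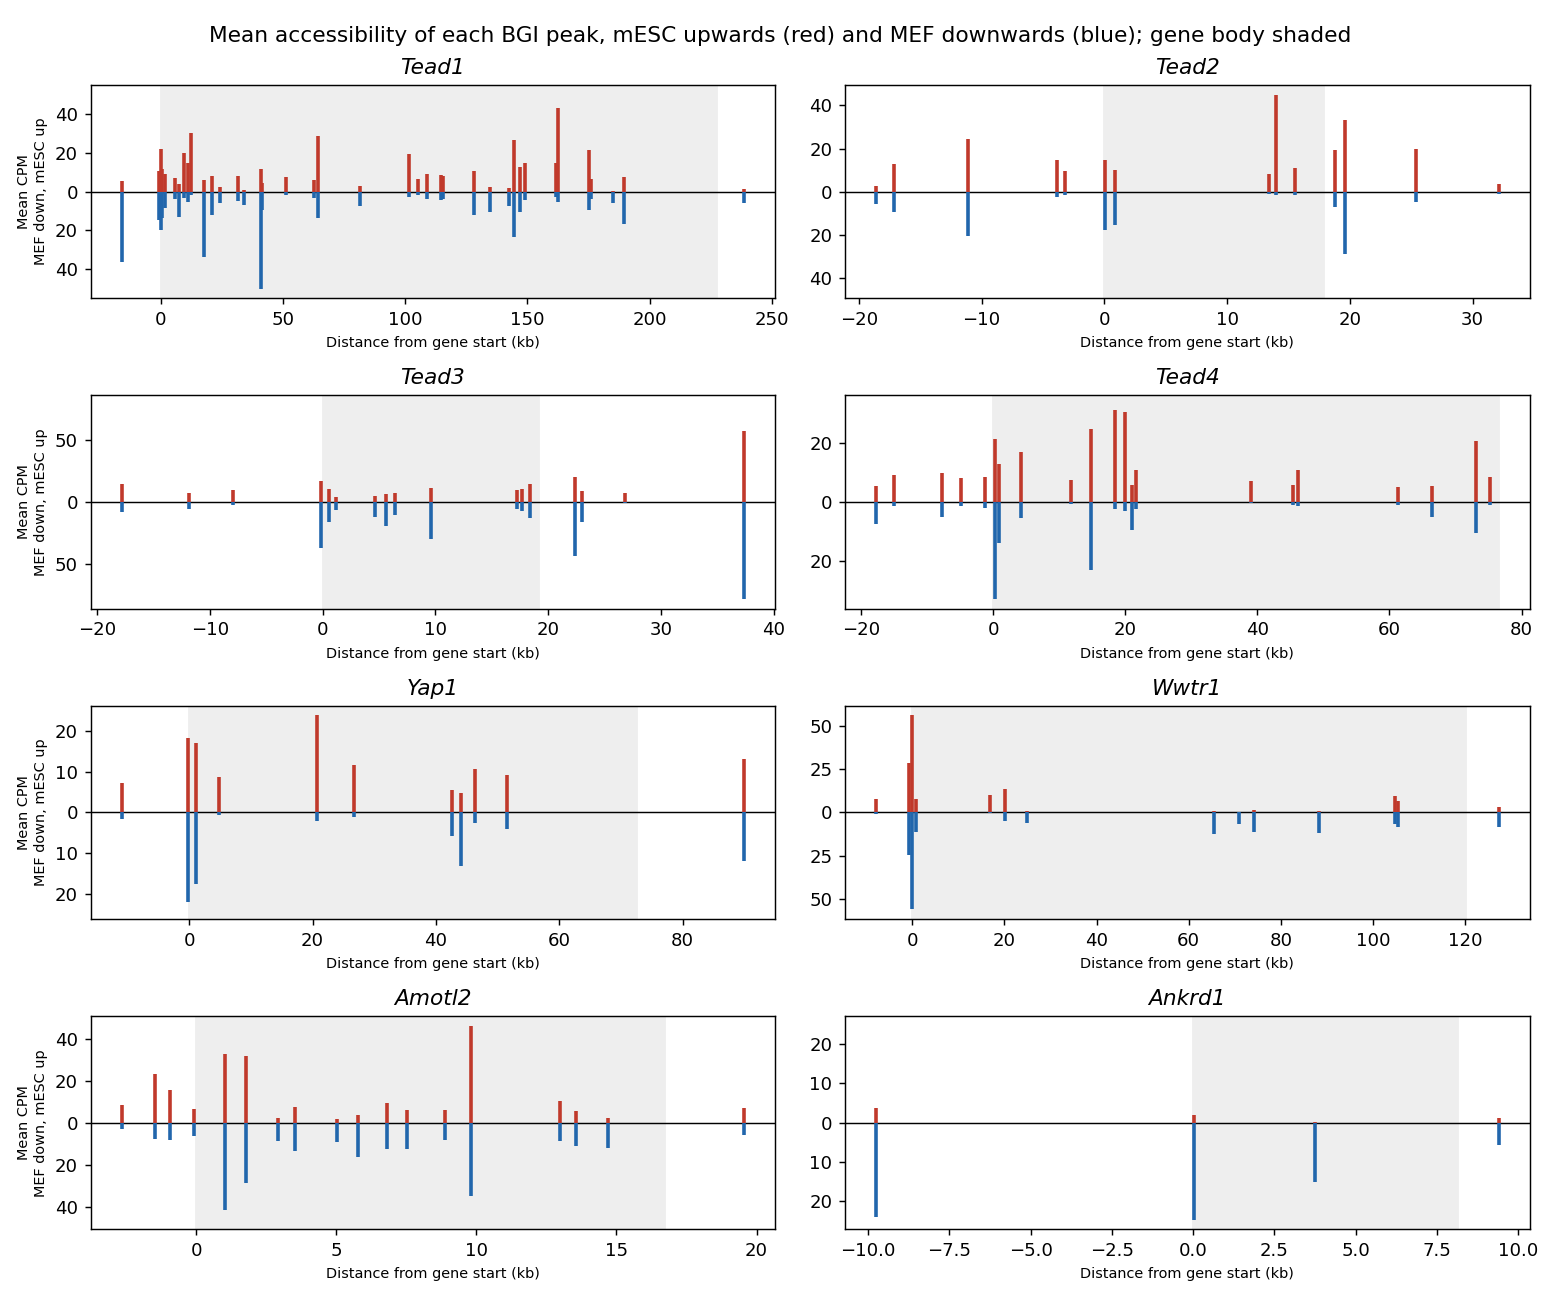
Mean CPM of each BGI peak against its distance in kb from the gene's first base, with mESC drawn upwards in red, MEF drawn downwards in blue and the gene body shaded. Tead4 and Yap1 show mostly red sites beyond the promoter, Wwtr1 a symmetric promoter with blue sites deep in the gene, and Ankrd1 almost no red.

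Amotl2 (chr9:102716672-102733418, plus strand) encodes a membrane-associated angiomotin that binds YAP and is itself a YAP/TEAD target. Its strongest promoter peak (chr9:102717438-102717939) measured 40.9, 40.6 and 43.2 CPM in MEFs and 34.1, 34.9 and 30.1 in mESCs, 1.26-fold higher in MEFs without overlap (log2 fold change -0.40, SE 0.09, adjusted p = 0.000907). The strongest distal peak, intronic at chr9:102726229-102726730, went the other way, from 34.7 ± 2.53 to 46.3 ± 2.84 CPM (log2 fold change 0.35, SE 0.09, adjusted p = 0.00225). Both differences are small beside the largest rise and fall of Amotl2, given below.

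Position split the Amotl2 peaks. Of 4 peaks centred upstream of the gene, 3 were higher in mESCs and 0 lower, whereas of 13 in the gene body 1 was higher and 10 were lower. The largest rise, intergenic and 1.47 kb upstream (chr9:102714954-102715455), measured 6.79, 8.0 and 8.21 CPM in MEFs and 27.4, 22.9 and 20.1 in mESCs (log2 fold change 1.55, SE 0.15, adjusted p = 2.39e-08). The largest fall, 5.04 kb into the gene near an alternative start (chr9:102721463-102721964), measured 7.89, 8.50 and 10.6 CPM in MEFs and 1.01, 1.42 and 2.24 in mESCs (log2 fold change -2.59, SE 0.27, adjusted p = 6.55e-08).

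Ankrd1 (chr19:36111961-36120099, minus strand) encodes an ankyrin repeat protein of muscle and stressed cells and is a standard readout of YAP/TEAD activity. All 4 of its peaks were lower in mESCs on both platforms, and none was listed by the authors as a reproducible mESC peak on BGI. The promoter peak (chr19:36119821-36120322) measured 27.9, 27.3 and 18.9 CPM in MEFs and 3.47, 1.66 and 1.06 in mESCs, 12-fold higher in MEFs (log2 fold change -3.66, SE 0.27, adjusted p = 1.09e-09). MEF library 4 was the lowest of its group and still lay well above every mESC library.

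The Ankrd1 promoter peak holds 2 TEAD cores, beginning 57 and 144 bases upstream of the start used by 5 of its 6 transcripts, and inside the first exon of the transcript that starts farther out. Both read in the direction of the gene, and 30 bases around each are shown with the core in capitals (chr19:36119950-36119979 and chr19:36120037-36120066, minus strand).
Ankrd1 promoter, near core: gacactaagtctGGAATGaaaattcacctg
Ankrd1 promoter, far core: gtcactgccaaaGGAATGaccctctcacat

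The largest fall of all named peaks was in an Ankrd1 intron, 3.75 kb into the gene (chr19:36116095-36116596). It measured 14.2, 14.7 and 16.1 CPM in MEFs and 0.252, 0.473 and 0.124 in mESCs, which is 4, 8 and 2 reads, a 53.0-fold difference (log2 fold change -5.74, SE 0.29, adjusted p = 9.47e-12; Illumina -5.60, SE 0.30). No summit was called there in any mESC library. The peak holds 2 AP-1 elements and no TEAD core (central 300 bases, chr19:36116196-36116495, minus strand, AP-1 in capitals).
Ankrd1 intron, higher in MEFs: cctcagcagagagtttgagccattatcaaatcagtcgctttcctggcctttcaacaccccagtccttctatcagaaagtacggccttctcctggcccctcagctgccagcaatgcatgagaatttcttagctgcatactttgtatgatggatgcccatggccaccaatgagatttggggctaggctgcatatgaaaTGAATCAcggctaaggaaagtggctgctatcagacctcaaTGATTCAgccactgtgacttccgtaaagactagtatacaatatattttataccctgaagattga
The intergenic peak 9.75 kb upstream (chr19:36129600-36130101) was the strongest distal one, at 29.8, 24.1 and 18.1 CPM in MEFs and 5.23, 2.84 and 2.86 in mESCs (log2 fold change -2.79, SE 0.23, adjusted p = 3.44e-09).

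Among 15130 protein-coding genes with a promoter peak, those nearest to the Ankrd1 promoter by Euclidean distance of log2 CPM over the 12 samples were Fam180a (distance 1.46), S100a4 (1.54) and Lrrn3 (1.55). For Amotl2 they were Slc35a1 (0.217), Iws1 (0.247) and Capn7 (0.257).

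The other pathway genes were followed at their strongest promoter peak. Of 27 other Hippo regulators (kinases, scaffolds, angiomotins and atypical cadherins of the upstream pathway, and Vestigial-like cofactors, which bind TEADs in the nucleus), 26 had a promoter peak on BGI: 3 were higher in mESCs, 14 lower and 9 not called, with a median log2 fold change of -0.26. On Illumina 2 were higher and 16 lower. Over all promoter peaks, 31.3% were higher and 41.0% lower on BGI, with a median of -0.13. That background is not limited to the strongest peak of each gene, so it is not a like-for-like set. The largest falls were at Fat4, an atypical cadherin (13.6 against 6.66 CPM, log2 fold change -1.09, SE 0.20), and Lats2, a kinase that phosphorylates YAP and is itself a target (24.4 against 12.5 CPM, -1.03, SE 0.12). The largest rise was at Ajuba, a LATS inhibitor (23.0 against 39.9 CPM, 0.72, SE 0.11). Wwc1 was called higher on BGI (log2 fold change 0.30) but not on Illumina (0.16, adjusted p = 0.127).

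Of 20 further YAP/TEAD target genes, all had a promoter peak: 1 was higher, 13 lower and 6 not called on BGI (1, 14 and 5 on Illumina), with a median log2 fold change of -0.50. The fall was deep at Ccdc80, a matrix protein gene (17.5 against 0.860 CPM, log2 fold change -4.40, SE 0.22), Myof, a membrane repair protein gene (22.7 against 5.25 CPM, -2.18, SE 0.15), Rbms3 (12.3 against 3.01 CPM, -2.09, SE 0.19) and Axl, a receptor tyrosine kinase gene (21.3 against 7.14 CPM, -1.65, SE 0.14). The matricellular genes Ccn1 and Ccn2, the targets most used as readouts, parted: Ccn1 fell (38.4 against 24.6 CPM, -0.71, SE 0.10) and Ccn2 was not called (46.3 against 49.6 CPM, 0.03, SE 0.11). Gadd45a was the 1 gene called higher (74.5 against 114 CPM, 0.54, SE 0.09). Lats2 and Ptpn14 stand in both lists. Over all BGI promoter peaks, again not limited to the strongest of each gene, 31.3% were higher and 41.0% lower. Over every BGI peak within 20 kb of these 20 genes, 21.4% were higher and 66.9% lower, and around the Hippo regulators 30.7% and 53.3%, beside 40.9% and 43.2% of all peaks.

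TEAD cores were found at similar shares of the member peaks called higher and lower over the whole peak. GGAATG, read on both strands, was in 19 of 59 BGI peaks called higher (32.2%, 95% Wilson interval 21.7 to 44.9%), in 19 of 55 called lower (34.5%, 23.4 to 47.7%) and in 13 of 24 not called (54.2%, 35.1 to 72.1%). Over all peaks it was in 29.0% of those higher, 37.4% of those lower and 23.1% of those not called. In the central 200 bases the shares were 16.9% (higher) and 25.5% (lower), beside 15.3% and 24.1% of all peaks. The AP-1 element TGANTCA was in 23.7% of member peaks called higher and 29.1% of those called lower, against 18.6% and 35.6% of all peaks. The octamer ATGCAAAT was in 1 member peak of each direction and in 4.81% and 2.22% of all peaks. The intervals cover counting error only, and overlapping peaks share sequence.

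The platforms were compared on the peak sets of each cell type, where the same libraries were read on both instruments. In MEFs, 3 of 91 member peaks were called between BGI and Illumina, all lower on BGI, beside 4.06% of all peaks. With library as a block 25 were called, 14 higher and 11 lower on BGI, beside 29.2%. In mESCs 3 of 107 were called, all lower on BGI, beside 3.23%; with the block there were 20, 9 higher and 11 lower, beside 21.3%. Without the block the counts ranged from 0 (without MEF library 1 or 2) to 9 (without MEF library 4), and were 0 without mESC library 1 or 5. The whole peak sets moved alike: 0 peaks were called without MEF library 1 or 2, and 6132 of 61891 without MEF library 4. Without mESC library 1 or 5 the calls were 1 and 0 of 67063.

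Of the 11 members called lower on BGI with the block in each cell type, 10 lay at promoters in MEFs and 10 in mESCs, beside 92.5% and 87.8% of all peaks called lower. Promoters made up 38 of the 91 members in MEFs and 40 of the 107 in mESCs, beside 39.4% and 39.7% of all peaks. The members called lower had a median GC content of 66.1% and 65.5%, against 49.9% and 52.8% in the members higher on BGI. At the Tead3 promoter the mESC peak at chr17:28350029-28350887 had the largest difference, 19.7 CPM on BGI and 34.1 on Illumina (log2 fold change -0.84, SE 0.11, adjusted p = 0.00340). The Tead1 promoter (MEF peak at chr7:112679732-112680233) held 14.0 CPM on BGI and 22.0 on Illumina (-0.67, SE 0.12, adjusted p = 0.0154), and with the block the Ankrd1 promoter was higher on BGI in MEFs (25.3 against 19.9 CPM, 0.34, adjusted p = 8.47e-05). With a GC offset beside the block, 9 member peaks were called in MEFs (4 higher and 5 lower on BGI), beside 12.7% of all peaks, and 6 of these were also called without the offset. In mESCs 10 were called (4 higher and 6 lower), beside 8.63%, and 8 of these were also called without it.

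**Figure D4:**
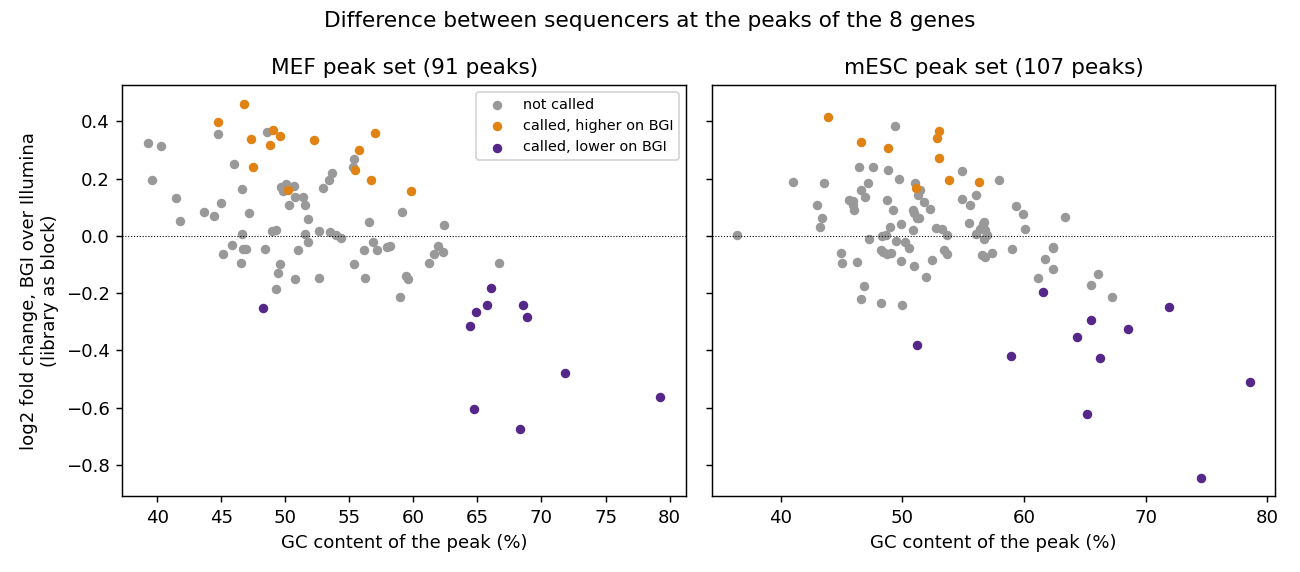
Difference between the sequencers (log2 fold change, BGI over Illumina, fitted with library as a block) against GC content in percent at the 91 MEF (left) and 107 mESC (right) peaks; orange points were called higher on BGI, purple points lower and grey points were not called. The purple points sit mainly at the right, at high GC content.

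The change between cell types did not differ detectably between platforms at any of the 138 member peaks. In edgeR's test of the interaction of platform with cell type 0 were called, and 0 by DESeq2, beside 0% of all peaks. At an unadjusted p under 0.05 in edgeR there were 4 members, beside 2386 of all 91354 peaks. With library as a block 0 were called, beside 0.386% of all peaks, and the smallest adjusted p was 0.0726. With the block 21 members had an unadjusted p under 0.05, beside 12094 of all 91354 peaks.

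**Figure D5:**
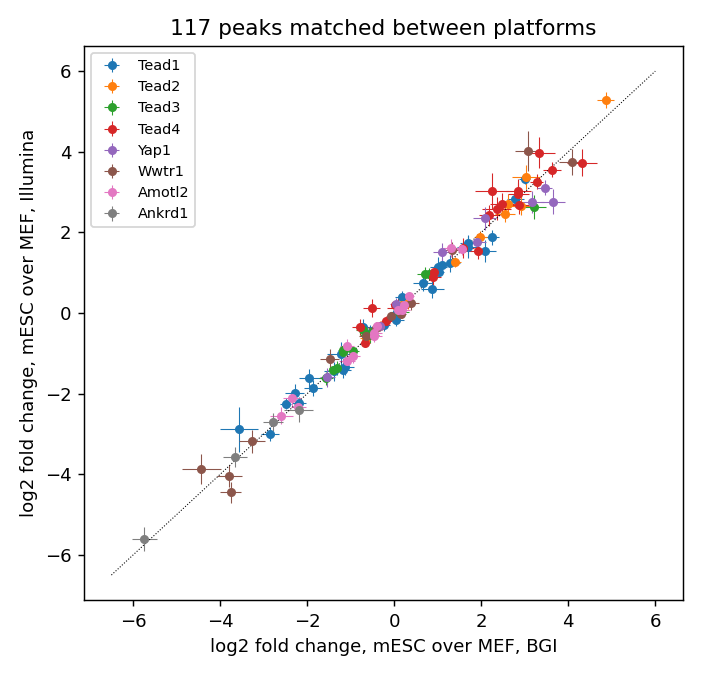
The log2 fold change (mESC over MEF) on BGI against that on Illumina for the 117 matched member peaks, with SE bars and 1 colour per gene. The points follow the dotted line of equality from the Ankrd1 intron at the lower left to the Tead2 intron at the upper right.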

How the data were processed

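The authors trimmed reads with Cutadapt, aligned them with Bowtie2 to mm10 (GRCm38), removed duplicates and mitochondrial reads, down-sampled MEFs to 60 M and mESCs to 45 M reads per sample, and called peaks per sample with MACS2. The deposited tables hold raw read counts per peak without normalization, over peaks of 502 bases in the tables used between cell types and of 502 bases or more in those used between platforms. The deposited peak calls give each summit's fold enrichment as a ratio and its -log10 p-value, and the lists of reproducible peaks hold positions only. Columns without a platform name were taken as Illumina; in each library the ratio of the columns followed the ratio of summit enrichment across peaks (Spearman rho 0.756 to 0.799). Of all pairs of samples, 0 had identical counts.

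The main test was edgeR (4.0.16, in R 4.3.3) with glmQLFit and glmQLFTest, two-sided, on TMM-scaled counts after filterByExpr, and Benjamini-Hochberg adjustment over all peaks of the table. Because each library was read on both instruments, its number pairs the platforms: after removing group means, the correlation of same-numbered samples was 0.617 to 0.837 (MEF) or 0.515 to 0.725 (mESC), and that of others -0.675 to 0.289. Alternatives were DESeq2 1.42.0, RLE factors, other filters, windows and libraries left out. For each gene the text names the strongest promoter and distal peak by mean CPM and the called peaks with the largest rise and fall on BGI, with the Illumina peak of largest overlap of at least 50%. Members and lists were chosen with earlier results of these data known. Reads in peaks per sample limit the precision: 1 CPM is 15.9 to 21.7 reads. Sequences were read from GRCm38.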

Additional observations from a re-analysis of the deposited data

How the results depend on the processing

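The counts of called member peaks moved by no more than 1.5 times under RLE factors, no filter, a mean count of at least 50, DESeq2, fixed depths, the other platform's peak set, windows of 0 and 50 kb, and without promoters of other genes (chosen after seeing the data). Without 1 library they were 108 to 113 on BGI and 98 to 102 on Illumina. Fixing library sizes at the down-sampled depths moved the median log2 fold change of all peaks by 0.142 (BGI) and 0.127 (Illumina), and changed the split from 59 higher and 55 lower to 65 and 48 on BGI, beside 43.5% and 38.8% of all peaks. Requiring a log2 fold change of at least 1 left 47 higher and 36 lower peaks on BGI (33.0% and 30.1% of all peaks) and 46 and 30 on Illumina (33.6% and 28.2%); of the Hippo regulators 0 were then higher and 2 lower, and of the targets 0 higher and 6 lower, on both platforms, beside 19.4% and 14.7% of all promoter peaks on BGI. Over the alternatives, 321 of 330 values of the 30 named BGI peaks and 298 of 308 of the 28 Illumina ones kept their direction and their side of the threshold. Differences near 0 changed sign: Wwtr1's promoter was 0.075 (BGI) and 0.062 (Illumina) at the fixed depths. Without 1 library Tead1's promoter ranged from -0.059 to 0.18 (BGI) and -0.082 to 0.10 (Illumina), and the Tead4 site open in both from -0.016 to 0.11 (BGI).

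Between platforms, member calls in MEFs were 7 by DESeq2, 0 to 9 without 1 library, 25 with library as a block (16 to 24 without 1 library, chosen after seeing the data) and 9 when a GC offset joined the block. In mESCs they were 0 to 2 without 1 library, 20 with the block (15 without any 1 library) and 10 with the GC offset. Over all 61891 MEF peaks the calls were 5914 by DESeq2 and 0 to 6132 without 1 library. With the block and without 1 library they were 11023 to 15222. Over all 67063 mESC peaks the calls were 0 to 1373 without 1 library, and 9118 to 11176 when the block was added. For the interaction, 0 member peaks were called with the block and without it. No paired analysis was possible because neither the labels nor the study's methods link a MEF library to an mESC library. This concerns the comparison of cell types alone.

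The share of member peaks with a TEAD core had to fall with stricter searches, whose matches are all among those of the wider search. With GGAATGT it was 10.2% (higher) and 10.9% (lower) on BGI, beside 9.39% and 14.9% of all peaks. On Illumina it was 9.26% and 14.3%, beside 9.35% and 14.4%. In the central 200 bases the GGAATG share was 16.9% (higher) and 25.5% (lower) on BGI, beside 15.3% and 24.1% of all peaks. On Illumina it was 18.5% and 22.4%, beside 14.9% and 23.2%. What sets the directions apart was not tested. Sites of under 1 CPM rest on fewer than about 20 reads per library.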
